A study of Homo sapiens with 4 samples.

Results

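The BCL2 family sets whether a cell keeps its mitochondria sealed or lets them start apoptosis. Transcripts of 10 members were followed, chosen by name from the 58226 Ensembl genes of the count tables and matched through the symbols of GENCODE 29 (GRCh38). They were the pro-survival genes *BCL2*, *BCL2L1* (BCL-XL) and *MCL1*, the effectors *BAX* and *BAK1*, and the BH3-only genes *BAD*, *BID*, *BBC3* (PUMA), *PMAIP1* (NOXA) and *BCL2L11* (BIM). All 10 were found and all 10 passed the filter on low counts, a mean of at least 1 CPM (counts scaled to the library total) in the compared libraries, in each comparison. RNA-seq was made of the human glioblastoma (GBM) cell line U87MG and of R-U87MG, a derivative of it that is resistant to the alkylating drug temozolomide (TMZ) and was kept in 50 μM TMZ. The resistant cells were transfected with siRNA against the cytoplasmic deacetylase HDAC6 (si-HDAC6) and the parental ones with siRNA against the long non-coding RNA LINC00461 (si-LINC00461), and each line had a control given non-targeting siRNA (si-NC). All 4 cultures were thus transfected, and total RNA was taken 72 h later.

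There was 1 library per condition, so no difference below has a replicate check, no p-value is given, and the 95% intervals cover the counting error of these libraries only. The libraries held between 12596072 and 20027866 fragments, and 3 counts corresponded to between 0.150 and 0.238 CPM. In each library *VIM* and *CD44*, markers of mesenchymal GBM cells, stood at 1604 CPM or more, whereas the astrocyte markers *GFAP* and *S100B* and the stem cell marker *SOX2* had at most 13 counts. The leukocyte marker *PTPRC* and the neuronal marker *RBFOX3* had at most 3 counts, but *CD68*, a macrophage marker, had between 424 and 734 CPM. Other markers of the line and of other cell types differed strongly after si-LINC00461, and their values stand beside the dividing-cell markers below. The targeted transcripts were lower in the treated libraries. In R-U87MG, *HDAC6* had 296 counts with si-NC and 67 with si-HDAC6, a 3.35-fold lower level (interval 2.58 to 4.46). In U87MG, *LINC00461* had 363 counts with si-NC and 73 with si-LINC00461, a 4.34-fold lower level (interval 3.39 to 5.70).

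The family works through binding between its members in the outer mitochondrial membrane. BAX and BAK1 form the pores through which cytochrome c leaves, BCL2, BCL-XL and MCL1 hold them in check, and the BH3-only proteins sense damage or growth factor loss and either occupy the pro-survival proteins or activate the effectors directly. The proteins are also governed by phosphorylation, cleavage and degradation, none of which is measured by RNA-seq. GBM cells are known to depend to a varying degree on BCL-XL and MCL1.

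LINC00461 has been described as a sponge of microRNAs, so the mature microRNAs that the study connects with it, or that lie in its gene, are shown with their seed (bases 2 to 8) in capitals. The sequences were taken from RefSeq (GRCh38.p14). The 3 seeds differ from each other.
hsa-miR-485-3p: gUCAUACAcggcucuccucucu
hsa-miR-411-5p: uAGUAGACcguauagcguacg
hsa-miR-9-5p: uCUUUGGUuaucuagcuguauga
The site complementary to the seed is TGTATGA for miR-485-3p, GTCTACT for miR-411-5p and ACCAAAG for miR-9-5p, and 5, 3 and 15 of the 16 annotated transcripts of LINC00461 hold it. One of the genes of miR-9, *MIR9-2*, lies inside *LINC00461* on chromosome 5, which spans 88507546 to 88691041 on the minus strand. In the longest annotated 3′ UTR of each of the 10 family genes, 0 held a miR-485-3p site, against 14.2% of 11779 genes compared. *BCL2L11* alone held the other sites, 1 for miR-411-5p and 2 for miR-9-5p, against 7.01% and 15.1% of the genes. The 3′ UTR of *BCL2L11*, with 4480 bases, is the one in the family that pairs with any of the 3 seeds. For that reason the miR-411-5p site and the first of the 2 miR-9-5p sites are shown, in capitals. Both stretches lie on the plus strand of GRCh38, at chr2:111168045-111168073 and chr2:111166147-111166175.
BCL2L11 miR-411-5p site: aatcagttgggGTCTACTctaaacagcat
BCL2L11 miR-9-5p site: cacacacatacACCAAAGatgtatttgga
A match of letters is not evidence that a microRNA acts there. The *BCL2L11* transcript itself had 210 counts with si-NC and 214 with si-LINC00461 in U87MG, or 10.5 and 12.04 CPM with overlapping counting intervals.

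Promoter sequence is shown for *BAK1* and *PMAIP1*, the members with over 100 counts in each library that had the largest ratios, and for *BAX*, the effector that varied less. The stretches end at the annotated start of the gene, are written along its strand from RefSeq (GRCh38.p14), and carry in capitals the GC box GGGCGG (bound by SP1), the E-box CACGTG (bound by MYC and related factors) and the CCAAT box, each searched on both strands.
BAK1, chr6:33580294-33580526, minus strand: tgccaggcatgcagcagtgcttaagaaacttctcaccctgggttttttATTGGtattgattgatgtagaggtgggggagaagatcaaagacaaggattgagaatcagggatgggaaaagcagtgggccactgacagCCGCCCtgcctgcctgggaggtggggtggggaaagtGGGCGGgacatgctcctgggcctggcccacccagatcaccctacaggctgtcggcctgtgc
PMAIP1, chr18:59899746-59899947, plus strand: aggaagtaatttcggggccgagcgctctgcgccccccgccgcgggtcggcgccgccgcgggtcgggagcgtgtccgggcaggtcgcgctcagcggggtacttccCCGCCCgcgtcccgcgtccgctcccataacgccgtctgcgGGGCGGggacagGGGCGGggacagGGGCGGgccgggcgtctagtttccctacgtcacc
BAX, chr19:48954625-48954814, plus strand: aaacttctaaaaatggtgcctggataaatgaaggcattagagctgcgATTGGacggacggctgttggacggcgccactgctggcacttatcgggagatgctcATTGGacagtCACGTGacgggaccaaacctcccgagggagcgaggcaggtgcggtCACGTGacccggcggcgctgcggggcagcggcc
The *BAK1* stretch holds 2 GC boxes and 1 CCAAT box, the *PMAIP1* stretch 4 GC boxes, and the *BAX* stretch 2 E-boxes and 2 CCAAT boxes. These printed stretches end at the GENCODE start of the gene, whereas the promoters searched next were the 250 bases before the RefSeq start. The 2 starts can differ. The *BAX* window runs past the GENCODE start, and its GC box and some of its E-boxes lie beyond the printed stretch. For *BCL2*, *BCL2L11* and some windows of *BCL2L1* and *BID*, the whole window lies inside the GENCODE gene. Over these windows, GGGCGG occurred in 42.6% of 35116 promoters and in those of 6 of the 9 members listed. These 6 were *BAD*, *BAK1*, *BAX*, *BCL2L11*, *BID* and *PMAIP1*, and *MCL1* was not among the 9. Percentages count single promoters, whereas a member counted when any of its promoters matched, and *BAD*, *BCL2L1* and *BID* had several. Member counts and percentages here and below are therefore not alike in measure. CACGTG occurred in 6.35% of promoters and in those of *BAX*, *BBC3* and *BID*. CCAAT occurred in 32.0% of promoters and in those of 5 members. TATAAA, the TATA box, occurred in 10.7% of promoters and, in the family, in that of *BCL2L1*. The element TTCNNNGAA of STAT factors occurred in 6.57% of promoters, TGACGTCA of CREB and ATF factors in 1.65% and TTTGGCGC of E2F factors in 0.550%, and in none of the 9 members.

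The counts and levels of each member are given in the order R-U87MG si-NC, R-U87MG si-HDAC6, U87MG si-NC and U87MG si-LINC00461. CPM were taken over the total of a library, and the plot of member levels sets them side by side.

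**Figure D1:**
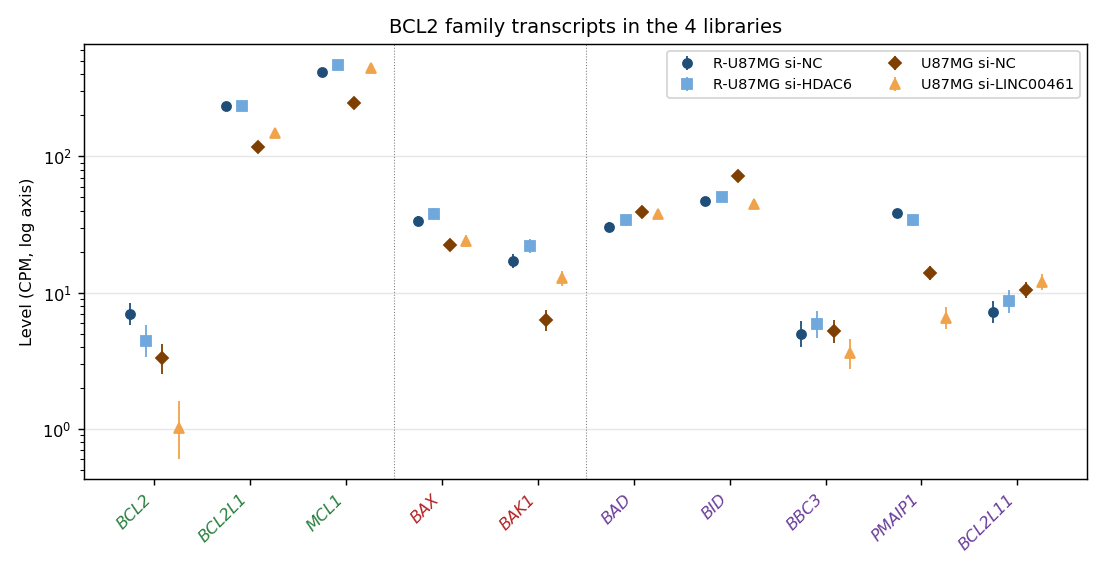
Level of each BCL2 family transcript (CPM, log axis) in the 4 libraries, 1 point per library with its exact binomial 95% interval of counting error. Names are coloured by role, with pro-survival genes at the left, effectors in the middle and BH3-only genes at the right. *MCL1* and *BCL2L1* stand above 100 CPM in every library, *BCL2* ranges from 6.97 CPM in R-U87MG si-NC to 1.01 CPM in U87MG si-LINC00461, and *PMAIP1* from 38.3 to 6.53 CPM.

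*MCL1* encodes a short-lived pro-survival protein that binds BAK1 and the BH3-only proteins NOXA and BIM. It had 6910, 5878, 4907 and 7944 counts, or 415, 467, 245 and 447 CPM. *BCL2L1*, whose main product BCL-XL binds BAX, BAK1 and BAD, had 3920, 2931, 2351 and 2658 counts, or 236, 233, 117 and 150 CPM. *MCL1* was thus lowest in U87MG si-NC and at 415 CPM or more in the others, and *BCL2L1* was higher in both R-U87MG libraries than in both U87MG libraries. Both genes are spliced into short forms that favour death, and counts per gene do not part these from the long forms.

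*BCL2*, the founding member, had 116, 56, 66 and 18 counts, or 6.97, 4.45, 3.30 and 1.01 CPM. It was the lowest of the pro-survival members in every library, and its 18 counts in U87MG si-LINC00461 were the smallest number of any member. The gene lies on the minus strand of chromosome 18 (GRCh38, 63123346 to 63320128) and has 11765 bp of merged exon.

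Of the effectors, *BAX*, whose product waits in the cytosol until activated, had 562, 480, 448 and 426 counts, or 33.8, 38.1, 22.4 and 24.0 CPM. *BAK1*, whose product resides in the mitochondrial membrane, had 285, 278, 126 and 226 counts, or 17.1, 22.1, 6.29 and 12.7 CPM. *BAX* was above *BAK1* in each library, and *BAK1* was lowest in U87MG si-NC. *BAK1* lies on chromosome 6 (33572547 to 33580293, minus strand), and 12.3% of its stretches of 50 bases also occur in the pseudogene *BAK1P1*, which had at most 3 counts. For the other members at most 0.894% of such stretches were shared.

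Of the BH3-only genes, *BID* encodes the protein that caspase-8 cleaves to carry a death receptor signal to the mitochondria. It had 785, 636, 1435 and 794 counts, or 47.2, 50.5, 71.7 and 44.7 CPM. *BAD*, whose product binds BCL2 and BCL-XL when survival kinases are off, had 504, 428, 782 and 677 counts, or 30.3, 33.98, 39.0 and 38.1 CPM. *BID* was highest in U87MG si-NC, while *BAD* was higher in both U87MG libraries than in both R-U87MG libraries, though its interval in R-U87MG si-HDAC6 overlapped those of both U87MG libraries.

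*PMAIP1* encodes NOXA, a partner of MCL1 that p53 and the unfolded protein response induce. It had 637, 427, 281 and 116 counts, or 38.3, 33.9, 14.0 and 6.53 CPM. The gene lies on the plus strand of chromosome 18 (59899948 to 59904306). *PMAIP1* was higher in both R-U87MG libraries than in both U87MG libraries and had the widest range among the BH3-only genes.

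*BCL2L11* encodes BIM, which binds all the pro-survival proteins, and *BBC3* encodes PUMA, a p53 target with the same reach. *BCL2L11* had 120, 109, 210 and 214 counts, or 7.21, 8.65, 10.5 and 12.04 CPM. *BBC3* had 83, 74, 105 and 64 counts, or 4.99, 5.87, 5.24 and 3.60 CPM. *BCL2L11* was higher in U87MG than in R-U87MG, though the intervals of R-U87MG si-HDAC6 and U87MG si-NC overlapped. The counting intervals of *BBC3* overlapped between the R-U87MG libraries and U87MG si-NC. The *BBC3* interval of U87MG si-LINC00461 (2.77 to 4.60 CPM) overlapped those of both si-NC libraries. Whether the counting used strand is not given, so fragments of *BCL2L11* could not be told from those of *MIR4435-2HG* on the opposite strand (194 to 543 counts), nor those of *BAD* from those of *GPR137* (472 to 1028 counts). The other overlapping genes had at most 4 counts.

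Levels of different genes were compared per kb of merged exon. *MCL1* was the highest member in all 4 libraries, with 95.01, 107, 56.1 and 102 CPM per kb, and *BCL2L1* came next with 71.1, 70.2, 35.4 and 45.1. *BAD* came after them in each library, at 17.7, 19.9, 22.9 and 22.3 CPM per kb. *BCL2* was the lowest in each, at 0.593, 0.378, 0.280 and 0.0861. Among all genes of at least 1 CPM, *MCL1* stood at the 97.8th, 98.1st, 95.6th and 97.9th percentile of level per kb and *BCL2* at the 7.98th, 3.95th, 2.60th and 0.122nd. Some neighbours in the order did not differ beyond their counting intervals. These were *BAD* and *PMAIP1* in R-U87MG si-NC, *PMAIP1* and *BAX* as well as *BID* and *BAK1* in R-U87MG si-HDAC6, *BID* and *BAX* in U87MG si-LINC00461, and *BBC3* and *BCL2L11* in every library but U87MG si-LINC00461. With the length of the longest transcript instead, the places of *MCL1*, *BCL2L1*, *BAD* and *BCL2* were the same in each library.

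Summed per kb, the 3 pro-survival genes came to 167 CPM in R-U87MG si-NC, 177 in R-U87MG si-HDAC6, 91.8 in U87MG si-NC and 147 in U87MG si-LINC00461. They made up 70.7%, 70.5%, 60.5% and 73.5% of the summed level of the members followed, nearly all of it *MCL1* and *BCL2L1*. U87MG si-NC thus had the lowest pro-survival share among these members. Other relatives of the family were left out of the sums and shares. Among them, *BCL2L2* had 97.4, 96.5, 57.9 and 43.9 CPM in the same order of libraries. The BH3-only gene *BMF*, also left out, had 9.2, 15.2, 11.1 and 32.2 CPM. After si-LINC00461 *BCL2L2* was thus lower and *BMF* higher, each against the direction of the sum for the 3 pro-survival or 5 BH3-only genes. The 2 effectors came to 20.8, 24.7, 11.5 and 15.0 CPM per kb. The 5 BH3-only genes came to 48.1, 49.6, 48.5 and 38.2, or 20.4%, 19.7%, 32.0% and 19.0% of the members followed. Over library totals, the sum of these 5 genes was nearly alike in the first 3 libraries named and lower after si-LINC00461. The likeness between the lines depends on the scaling. The TMM scaling used below sets R-U87MG si-NC lower against U87MG si-NC by a log2 of 0.26. With the longest transcript as length the sums were 68.8, 71.9, 74.5 and 58.4. Single BH3-only members differed between the lines in both directions, as given below.

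**Figure D2:**
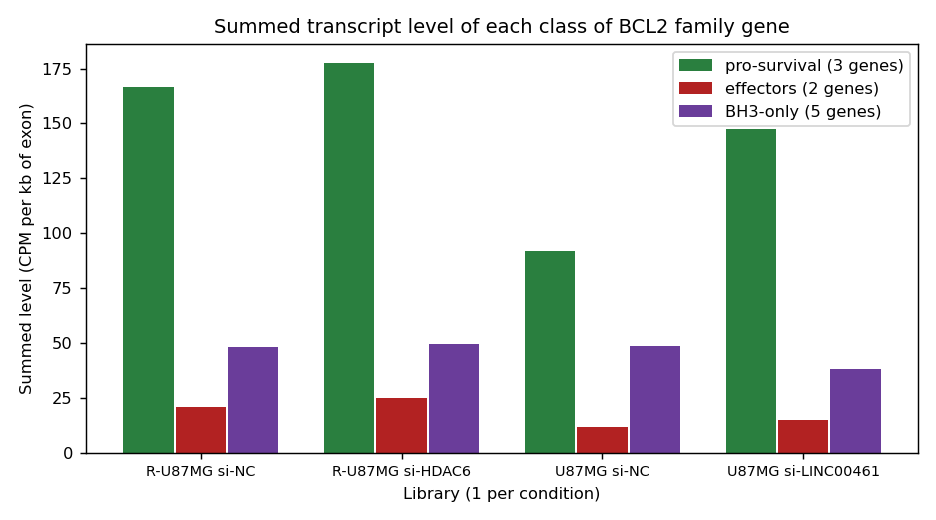
Summed level (CPM per kb of merged exon) of the 3 pro-survival, 2 effector and 5 BH3-only genes in each library, 1 library per condition and bars from 0, with no error bars. The pro-survival bar is 91.8 in U87MG si-NC and between 147 and 177 in the other libraries, and the BH3-only bar is 38.2 in U87MG si-LINC00461 and between 48.1 and 49.6 elsewhere.

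The comparison of si-HDAC6 with si-NC in R-U87MG asks which members followed HDAC6 in resistant cells. Ratios were taken over library sizes normalized with TMM, a scaling that assumes most genes alike. *BCL2* was 1.57-fold lower after si-HDAC6 (interval 1.14 to 2.21), a log2 ratio of −0.65 that lay at the 1.96th percentile of the 13120 genes compared. *PMAIP1* was 1.14-fold lower (log2 −0.18, interval −0.37 to −0.01). *BAK1* was 1.28-fold higher (log2 0.36, interval 0.11 to 0.60) and *MCL1* 1.12-fold higher (log2 0.16, interval 0.11 to 0.21). The other 6 had intervals that held 0, namely *BCL2L1* (−0.03), *BAX* (0.16), *BAD* (0.16), *BID* (0.09), *BBC3* (0.23) and *BCL2L11* (0.25). With library totals in place of TMM the interval of *PMAIP1* held 0 as well. In bulk RNA, fewer cells of a kind and less RNA per cell cannot be told apart.

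None of the 10 members was at least 2-fold lower or higher, where 0.747% and 0.694% of all genes were. The interval lay wholly below 0 for 2 members and wholly above 0 for 2, against 16.4% and 13.8% of all genes. The median log2 ratio of the members was 0.16 and that of all genes −0.01. By role, the ratios of the pro-survival genes ran from −0.65 to 0.16, those of the effectors from 0.16 to 0.36 and those of the BH3-only genes from −0.18 to 0.25.

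si-LINC00461 was compared with si-NC in parental U87MG to see which members followed the lncRNA. *BCL2* was 3.16-fold lower (interval 1.89 to 5.76), a log2 ratio of −1.66 at the 2.98th percentile of the 13210 genes compared. *MCL1* was 1.84-fold higher (log2 0.88, interval 0.83 to 0.93) and *BCL2L1* 1.29-fold higher (log2 0.36, interval 0.28 to 0.44). The pro-survival genes therefore did not go one way, since the scarce *BCL2* was lower and the abundant *MCL1* and *BCL2L1* were higher. *BAK1* was 2.04-fold higher (log2 1.03, interval 0.71 to 1.36), and *BAX* had a log2 ratio of 0.11 whose interval held 0. With DESeq2 size factors the ratio of *BAK1* was 0.995, under the 2-fold line.

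The BH3-only genes were lower or had intervals that held 0 after si-LINC00461. *PMAIP1* was 2.12-fold lower (log2 −1.09, interval −1.41 to −0.77) and *BID* 1.59-fold lower (log2 −0.67, interval −0.79 to −0.54). *BBC3* was 1.44-fold lower (log2 −0.52, interval −0.999 to −0.07). *BAD* (−0.02) and *BCL2L11* (0.21, interval −0.07 to 0.50) had intervals that held 0. None of the 5 had an interval wholly above 0.

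At the 2-fold line, 2 members were lower and 1 was higher, against 8.17% and 5.42% of all genes. The interval lay wholly below 0 for 4 members and wholly above 0 for 3, against 33.4% and 33.1%, so the members' share by this rule was close to that of all genes. Their median log2 ratio was 0.05, and that of all genes 0.00. The whole transcriptome differed more here than after si-HDAC6, with a central 90% of log2 ratios from −1.33 to 1.04 instead of −0.42 to 0.44.

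**Figure D3:**
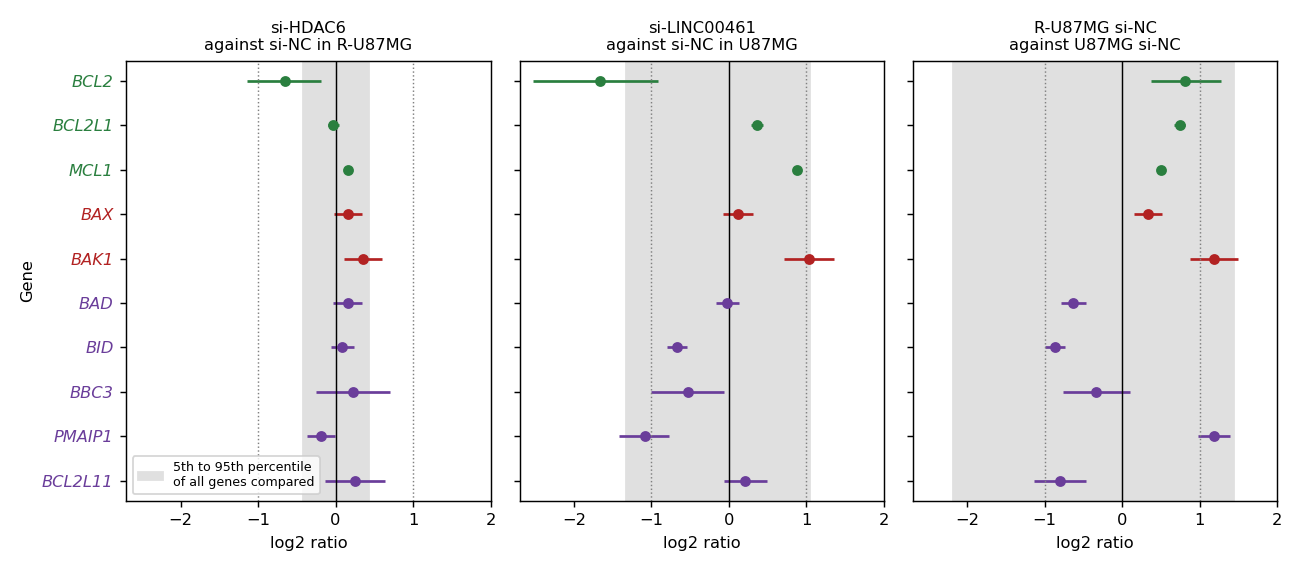
Log2 ratio of each member in the 3 comparisons, with its exact binomial 95% interval of counting error. Grey marks the range from the 5th to the 95th percentile of all genes compared, and dotted lines mark 2-fold. The point of *BCL2* lies outside the grey range after si-HDAC6 (−0.65) and after si-LINC00461 (−1.66), but both its intervals reach into that range. *BAK1* reaches 1.03 and *PMAIP1* −1.09 after si-LINC00461. Between the lines no point leaves the grey range.

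The si-NC libraries of the lines were compared to describe the family in resistant and parental cells. Both libraries also serve as the control of another comparison, so the results are not independent of those above. The authors scaled the pairs of files separately, and the comparison was made on counts freed of that scaling. The line and the TMZ in its medium cannot be told apart. All pro-survival genes and effectors were higher in R-U87MG. *BCL2* was 1.76-fold higher (log2 0.81, interval 0.37 to 1.28), *BCL2L1* 1.67-fold (0.74), *MCL1* 1.41-fold (0.50) and *BAX* 1.26-fold (0.33). *BAK1* was 2.26-fold higher (log2 1.18, interval 0.87 to 1.495).

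The BH3-only genes differed in direction between the lines. *PMAIP1* was 2.27-fold higher in R-U87MG (log2 1.18, interval 0.98 to 1.39), whereas *BID* was 1.82-fold lower (−0.87), *BCL2L11* 1.74-fold lower (−0.80) and *BAD* 1.55-fold lower (−0.63). The interval of *BBC3* (−0.33) held 0. At the 2-fold line 2 members were higher and 0 lower, against 11.2% and 15.0% of all 13349 genes. The interval lay wholly above 0 for 6 members and wholly below 0 for 3, against 39.4% and 38.8%.

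The median log2 ratio of the members was 0.41 between the lines and that of all genes 0.02. With library totals in place of TMM every ratio was 0.26 higher. The share of higher genes among those whose interval left out 0 was then 65.3% instead of 50.4%. At least 2-fold higher in R-U87MG were then 4 instead of 2 members, beside 2399 instead of 1494 of all 13349 genes. *BID*, *BCL2L11* and *BAD* were lower under either scaling.

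Set side by side, *BCL2* had log2 ratios of −0.65 after si-HDAC6, −1.66 after si-LINC00461 and 0.81 between the lines. *PMAIP1* had −0.18, −1.09 and 1.18. *BAK1* had 0.36, 1.03 and 1.18, and *MCL1* 0.16, 0.88 and 0.50, so these 2 were higher in the first library named of each comparison. *LINC00461* itself was 1.46-fold lower after si-HDAC6 (log2 −0.55, interval −0.96 to −0.15) and 2.35-fold lower in R-U87MG than in U87MG (log2 −1.23), and *HDAC6* was 2.19-fold lower in R-U87MG. *BCL2* was higher in R-U87MG, where *LINC00461* was lower, and a relation between them was not tested. The paper reported higher *LINC00461* in TMZ-resistant than in parental patient-derived GBM cells, which are not among these libraries.

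Ratios of binding partners within a library need no scaling between libraries. The pairs were chosen after the values of the members had been seen, from partners known to bind each other. Per kb, *MCL1* over *PMAIP1* was 5.55, 7.04, 8.93 and 35.0 in the order of libraries given above, with an interval of 29.2 to 42.4 in U87MG si-LINC00461 and of 7.92 to 10.1 in U87MG si-NC. The transcript of MCL1 thus exceeded that of NOXA most after si-LINC00461, and the intervals of the 4 libraries did not overlap. *MCL1* over *BAK1* was 12.3, 10.7, 19.7 and 17.8, and here the intervals overlapped within each line. *BCL2L1* over *BAK1* was 9.18, 7.04, 12.5 and 7.85, higher in U87MG si-NC than in U87MG si-LINC00461.

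The ratios that contain *BCL2* were low throughout. *BCL2* over *BCL2L11* was 0.547, 0.291, 0.178 and 0.0476, with no overlap between the intervals of control and treated library in either line. *BCL2* over *BAX* was 0.0454, 0.0257, 0.0324 and 0.00929, and again control and treated library did not overlap in either line. *BCL2L1* over *BAD* was 4.01, 3.53, 1.55 and 2.02, higher in R-U87MG than in U87MG.

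**Figure D4:**
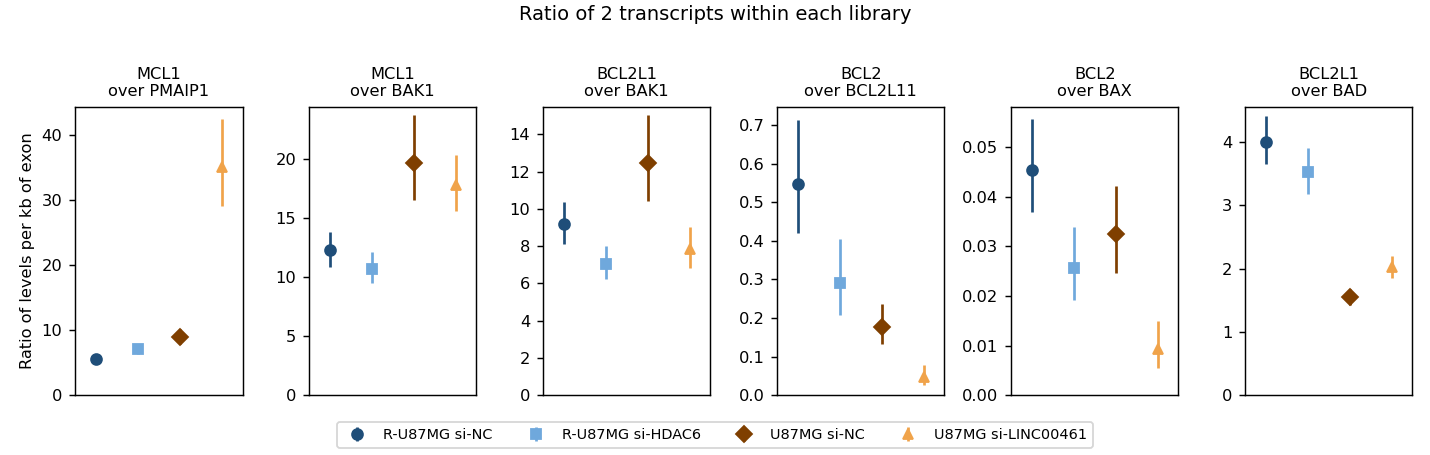
Ratio of the levels per kb of 2 binding partners within each library, 1 point per library with its exact binomial 95% interval, each panel on its own linear axis from 0. *MCL1* over *PMAIP1* is 35.0 in U87MG si-LINC00461 and at most 8.93 elsewhere, and *BCL2* over *BCL2L11* ranges from 0.547 in R-U87MG si-NC to 0.0476 in U87MG si-LINC00461.

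Genes around the family were described from lists chosen by function. Of 13 other BCL2 relatives, 6 had a mean of at least 1 CPM. After si-HDAC6 none of the 6 was 2-fold changed, and their ratios ran from −0.21 (*BNIP3L*, a mitophagy receptor) to 0.71 (*BMF*, a BH3-only gene). After si-LINC00461 *BMF* was 2.92-fold higher, from 223 to 572 counts (log2 1.54, interval 1.32 to 1.78), and was the only relative past 2-fold. The BH3-only genes thus included one that was higher beside *PMAIP1*, *BID* and *BBC3*, which were lower. At 2-fold, 5.42% of all genes were higher. Between the lines, *BNIP3*, a hypoxia-induced mitophagy receptor, had 19880 counts in U87MG si-NC and 1068 in R-U87MG si-NC, an 18.6-fold lower level. *BNIP3L* was 8.07-fold lower. These were the 2 of the 6 relatives at least 2-fold lower in R-U87MG, against 15.0% of all genes.

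Downstream of the mitochondria, 16 genes of the caspase pathway were compared. After si-HDAC6 none was 2-fold changed, and 2 had intervals below 0 and 0 above, against 16.4% and 13.8% of all genes, with ratios from −0.24 (*BIRC2*) to 0.31 (*ENDOG*, a nuclease of the mitochondria). After si-LINC00461 5 were at least 2-fold lower and 0 higher, and by the interval 10 were lower and 4 higher, with a median of −0.32. Of all genes 8.17% were at least 2-fold lower and 5.42% higher, and by the interval 33.4% were lower and 33.1% higher. The 4 lowest were *APAF1*, the scaffold of the apoptosome (log2 −1.77), and the inhibitor of apoptosis genes *BIRC5* (−2.12), *BIRC3* (−1.97) and *BIRC2* (−1.45). They thus held genes that promote and genes that restrain death. Between the lines 3 were at least 2-fold higher in R-U87MG, *BIRC5* (1.26), *CYCS* (1.14) and *XIAP* (1.05), against 11.2% of all genes.

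In the death receptor pathway, which reaches the mitochondria through BID, 11 genes were compared after si-HDAC6 and none was 2-fold changed, with ratios from −0.20 (*FAS*) to 0.15 (*FADD*). After si-LINC00461 2 of 12 were at least 2-fold lower, against 8.17% of all genes. *TNFRSF10D*, a decoy receptor of TRAIL, had 6615 counts in U87MG si-NC and 955 in U87MG si-LINC00461 (log2 −2.60), and *TNFRSF10B*, a TRAIL receptor that signals death, had 6372 and 1952 (−1.52). By the interval 4 were lower and 5 higher, against 33.4% and 33.1% of all genes. Between the lines 2 of 11 were at least 2-fold lower in R-U87MG, the decoy receptors *TNFRSF10C* (−1.56) and *TNFRSF10D* (−1.46), against 15.0% of all genes. By the interval 7 of the 11 were lower and 3 higher, against 38.8% and 39.4%.

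Of 12 genes of transcription factors known to act on the family, 10 were compared. After si-HDAC6 the lowest ratio was that of *STAT3* (−0.66, 1745 and 844 counts) and the highest that of *FOXO1* (0.65, 41 and 49 counts), and 1 was lower and 4 higher by the interval, against 16.4% and 13.8% of all genes. After si-LINC00461 *MYC* was 4.28-fold lower (log2 −2.10) and *STAT3* 2.11-fold higher (log2 1.08), and 5 were lower and 2 higher by the interval, against 33.4% and 33.1%. *E2F1* (log2 1.82) and *DDIT3* (1.69), the factor of the unfolded protein response also named CHOP, were higher in R-U87MG than in U87MG. They were the 2 of the 10 genes at least 2-fold higher there, against 11.2% of all genes. The amounts and activity of these proteins were not measured here.

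Transcripts of dividing cells moved with each comparison, and their part in the results on the family was not tested. After si-LINC00461 all 10 of these markers were lower by the interval and 9 at least 2-fold, against 33.4% and 8.17% of all genes. Their median log2 ratio was −2.19, and their summed level was 1152 CPM in U87MG si-NC and 234 in U87MG si-LINC00461. *CCNA2* (−2.93), *MKI67* (−2.86), *CCNB2* (−2.75) and *TOP2A* (−2.67) were the lowest. After si-HDAC6 9 of 10 were lower by the interval, against 16.4% of all genes. Their median was −0.26, with ratios from −0.42 (*TOP2A*) to −0.02 (*CDK1*). Between the lines all 10 were higher in R-U87MG by the interval, against 39.4% of all genes, with a median of 0.89. *PCNA* (1.75), *CCNB1* (1.22) and *AURKA* (1.12) were at least 2-fold higher, against 11.2% of all genes. By sign alone, *BCL2* and *PMAIP1* stood on the same side as the median of these markers in each comparison, *PMAIP1* by only −0.185 after si-HDAC6. *BAK1* and *MCL1* stood on the other side after both siRNAs and on the same side between the lines. The share of all genes on the same side in each comparison was not counted.

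Markers of the line and of other cell types moved as well, and their part in the results on the family was not tested. After si-LINC00461, *CHI3L1*, a secreted protein of mesenchymal GBM cells, had 63189 counts against 2002 (log2 5.17), and *PDGFRA*, a growth factor receptor, 961 against 62 (log2 4.13). *EGFR* was 2.15-fold lower (log2 −1.10), and *VIM* had 3170 CPM against 6327. The 10 line markers summed to 8677 CPM in U87MG si-NC and 8828 in U87MG si-LINC00461, so these differences offset each other in the sum. Of the 8 markers of other cell types, *PECAM1* of endothelium had 433 counts against 52 (log2 3.23) and *SYP* of neurons 125 against 22 (log2 2.67). The other endothelial marker, *CDH5*, had 14 counts against 7, and the other neuronal marker, *RBFOX3*, 0 against 3. The sum of the 8 markers, mostly *CD68*, was 431 CPM in U87MG si-NC and 769 in U87MG si-LINC00461.

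After si-HDAC6 no marker of either list was 2-fold changed. The line markers ran from −0.42 (*PDGFRA*) to 0.71 (*OLIG2*, 92 and 115 counts), and the markers of other cell types from −0.35 (*PECAM1*) to 0.12 (*CD68*). Their sums were 8825 and 9108 CPM for the line and 490.0 and 537 CPM for other cell types. Between the lines, *OLIG2* (log2 2.58) and *PDGFRA* (1.18) were higher in R-U87MG, and *CHI3L1* (−1.51) and *MBP* of oligodendrocytes (−1.70, 11 counts against 37) were lower.

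**Figure D5:**
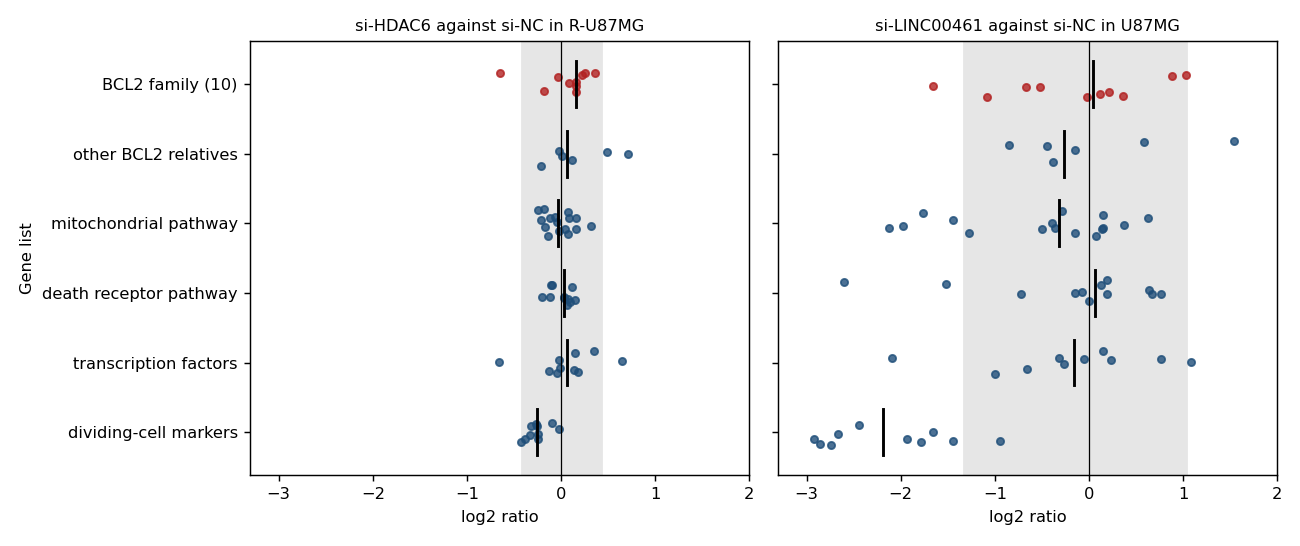
Log2 ratios of the genes of each list after si-HDAC6 (left) and si-LINC00461 (right), 1 point per gene with vertical spread for legibility only, black bars at the median of a list and grey from the 5th to the 95th percentile of all genes compared. The 10 members have a median of 0.16 and 0.05, and the dividing-cell markers one of −0.26 and −2.19.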

How the data were processed

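Strand-specific RNA-seq of 4 libraries was made for the study, 1 per condition. Per the labels, bcl2fastq, Trimmomatic 0.36, HISAT2 and the build GRCh38.p13 were used by the submitters, and the counting program and its annotation are not given in the sources used here. The siRNA concentration of the sequenced cultures is not given either. What the authors deposited for each gene is an estimated count of its fragments, multiplied by 1 factor per library (0.869, 1.15, 0.939 and 1.06). That factor was divided out and the result rounded to whole fragments, and between 93.4% and 94.1% of values above 0 lay within 0.02 of a whole number. This gave 16639551, 12596072, 20027866 and 17777046 fragments. Of 58226 gene IDs, 57888 are in GENCODE 29, which supplied symbols, positions and exon lengths, and 13 are in one pair of files only.

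The log2 ratio was that of counts plus 0.5 over the effective library size (TMM, edgeR 4.0.16, R 4.3.3) for genes whose mean CPM was 1 or more, and its 95% interval was exact binomial (Clopper-Pearson), from how a gene's counts divided between the libraries. The pseudocount understates ratios of scarce genes. With 1 library per condition no test was possible. A gene was called at 2-fold or when its interval left out 0. All members were named, and of each other list the genes at least 2-fold changed, at most 4 per list and comparison, or else the lowest and highest. A result of 1 list gene is not reported here. The members and lists were chosen with earlier results of these data known. Alternatives were DESeq2 1.42.0 size factors, library totals and upper-quartile scaling, pseudocounts of 0.1 and 5, libraries thinned to 12596072 fragments, other filters, a fold of 1.5, the values as deposited and the longest transcript as length. The calculation was tested on simulated counts. Analyses used Python 3.11.15, pandas 2.3.3 and scipy 1.17.1, and figures matplotlib 3.10.9.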

Additional observations from a re-analysis of the deposited data

How the results depend on the processing

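No paired analysis was possible because each condition had 1 library. Of 200 alternative log2 ratios of members, 1 changed sign, *BAD* after si-LINC00461 (0.007 with upper-quartile scaling, its interval holding 0), and 6 moved beyond their counting interval, all between the lines with library totals: *BCL2L1* 1.005, *MCL1* 0.76, *BAX* 0.59, *BAD* −0.37, *BID* −0.60 and *PMAIP1* 1.45. Under that scaling 2399 genes and 4 members were at least 2-fold higher in R-U87MG, and after si-HDAC6 1 member had an interval below 0. DESeq2 size factors left 0 members at least 2-fold higher after si-LINC00461. After si-LINC00461 a minimum of 5 CPM, which there removes *BCL2* and *BBC3*, left 1 member at least 2-fold lower and 2 with an interval below 0, and 442 genes at least 2-fold higher. It left 16 genes lower and 16 higher after si-HDAC6. A pseudocount of 5 left 43 lower there. Without a filter, 3050 were lower and 2465 higher after si-HDAC6, 4243 and 3799 after si-LINC00461, and 5793 and 4772 between the lines. At a fold of 1.5 these counts were 330 and 352 of 13120 genes, 2222 and 1871 of 13210, and 3346 and 3077 of 13349. Of the members, 1 was then lower and 0 higher after si-HDAC6, and 3 lower and 2 higher after si-LINC00461. Between the lines 3 members were lower and 4 higher at that fold. With the longest transcript as length, the summed CPM per kb in the order R-U87MG si-NC, R-U87MG si-HDAC6, U87MG si-NC and U87MG si-LINC00461 were 197, 208, 108 and 171 for pro-survival genes, 32.6, 38.0, 19.3 and 23.4 for effectors, and 68.8, 71.9, 74.5 and 58.4 for BH3-only genes. Depth limited *BCL2* (18 counts after si-LINC00461) and *BBC3* (64) most.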
